A study of Mus musculus with 6 samples.

Results

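Glycolysis and glucose uptake were followed through 32 genes in whole lenses of wild-type mice and of mice with a conditional knockout of fibronectin. The genes were taken by symbol from a list that runs from the glucose transporters through every step of glycolysis to lactate export, the pyruvate dehydrogenase subunits and their kinases. All 32 were found, each in 1 row, among the 41449 rows of the expression table. Of these, 27 had a mean of at least 1 FPKM (fragments scaled to the length of the transcript and to the depth of the library) and were tested, while 5 lay under that level.

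Glycolysis splits glucose into a pair of pyruvate molecules and yields a little ATP without oxygen, and lactate dehydrogenase lets it go on by turning pyruvate into lactate. The lens has no blood vessels, lies in a fluid poor in oxygen, and its mature fiber cells have lost their mitochondria, so glycolysis is known as its main source of ATP. Many steps are run by several isozymes from separate genes, named for the tissues in which they prevail, such as the muscle and brain forms of phosphoglycerate mutase. Lactate leaves cells through monocarboxylate transporters, and the pyruvate dehydrogenase complex sends pyruvate into mitochondria instead.

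The study asked what fibronectin, an extracellular matrix glycoprotein encoded by Fn1, does in the lens after birth, and measured total RNA in 6 libraries. The 3 WT libraries came from wild-type mice of strain C57BL/6, and the 3 FNcKO libraries from fibronectin conditional knockout mice of a mixed C57BL/6, 129 and FVB/N background. All mice were 2 months old, and each library pooled 2 lenses, so a library is a replicate that already averages lenses. The sources used here do not give the Cre driver or the deleted stretch of Fn1, and strain divides the libraries exactly as genotype does, so the effects of these cannot be told apart.

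Fn1 was low in every library. It measured 0.135, 0.188 and 0.253 FPKM in the WT libraries and 0.128, 0.0482 and 0.0942 in the FNcKO libraries, so that the 3 FNcKO values lay under the 3 WT values, but the gene was under the level tested and it is unknown whether these fragments come from outside the deleted stretch. The defining genes of lens fibers were the most abundant ones, with Cryaa (an alpha crystallin) at 39128 ± 1507 FPKM (SD, n = 3) in WT and 45100 ± 1030 in FNcKO (SD, n = 3) and Crybb2 (a beta crystallin) at 96926 ± 2013 and 90095 ± 4021. The summed level of the 9 fiber markers with a value in every library overlapped between genotypes, at 140499 to 146635 FPKM in WT and 141432 to 149023 in FNcKO. Most of that sum was Crybb2 and Cryaa, which moved in opposite directions, each without overlap. Of the 10 fiber markers, 8 had a log2 change above 0 and 2 under 0. Their median was 0.17, against -0.04 for all genes tested, and 0 passed the test described below. The summed level of 8 lens epithelial markers, most of it from Cd24a, did not overlap, at 929 to 956 FPKM in WT and 1057 to 1179 in FNcKO. In bulk RNA, a change in the number of cells of a type and a change in RNA per cell cannot be told apart. Depth, estimated from the values, did not overlap: WT libraries had 26500000 to 31700000 fragments, FNcKO libraries 19800000 to 21400000. WT replicate 2 has no value in the last part of the table, and the 5 members there (Pgk1, Pkm, Pdk3, Pdha1 and Pfkfb4) rest on 2 WT libraries.

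Of the 27 members tested, 1 passed the test, the muscle form of phosphoglycerate mutase, Pgam2, which was 2.14-fold higher in FNcKO lenses. Genotypes were compared by limma on log2(FPKM + 1) with p values adjusted by Benjamini-Hochberg over the 10149 tested genes, of which 192 (1.89%) had an adjusted p under 0.05. That count was 87 higher and 105 lower, but the split depends on the scaling. It was 140 and 102 under median-ratio scaling, 119 and 78 under quantile normalization, 67 and 26 with each library scaled to the same FPKM total, and 69 and 20 with crystallins left out of that total. The share of members called, 3.7%, is 1 gene. The counts of members by unadjusted p and by non-overlap lay under their background, and the count above 0 lay over it. An unadjusted p under 0.05 was found for 3 members (11.1%, against 18.1% of all genes tested), namely Pgam2, Eno1 and Hk1. The 3 FNcKO values lay wholly above or below the WT values for 6 members (22.2%, against 25.6% of all genes tested), with Pgam2, Eno1, Pgk1 and Pkm higher and Tpi1 and Ldha lower. The median log2 change of the members was 0.05, against -0.04 for all genes tested. The change was above 0 for 16 members (59.3%, against 39.7% of all genes tested) and under 0 for 11.

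The 26 other members had adjusted p values from 0.175 to 0.96. For 25 of them the 95% interval of the log2 change lay within a 1.5-fold change of FPKM + 1 in either direction. The exception was Ldhb, with an interval from -0.09 to 1.27. This scale understates changes of low genes, so intervals of members such as Hk1, Pfkm and Slc16a3 can reach beyond 1.5-fold in FPKM itself. The count of 25 depends on the pseudocount and the scaling. It was 21 with a pseudocount of 0.1 and 21 under quantile normalization. It was 12 with each library scaled to the same FPKM total and 3 with crystallins left out of that total. Under the latter the estimates of Eno1 (0.72), Pgk1 (0.67), Pkm (0.63), Gapdh (0.60) and Pgam1 (0.59), besides Ldhb (0.89), were themselves beyond 1.5-fold of FPKM + 1. None of the 6 passed the test. The plot of changes gives all 27 intervals.

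**Figure D1:**
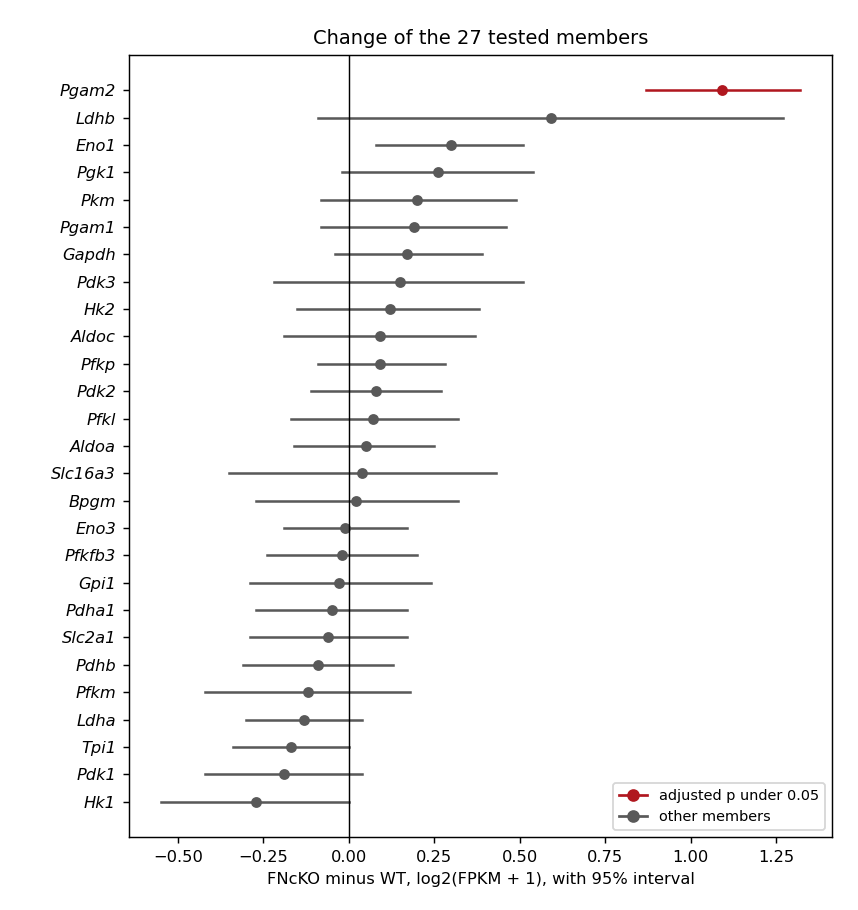
Log2 change (FNcKO minus WT, on the log2(FPKM + 1) scale, horizontal axis) of the 27 tested members, ordered by size. Points are limma estimates and lines their 95% intervals. Pgam2, in red, is the member with an adjusted p under 0.05, at 1.09. The interval of Ldhb reaches from -0.09 to 1.27, and the others are narrower.

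Levels in the WT lens spanned a wide range along the pathway. Pgam2 had the highest mean, 164.2 FPKM, followed by Gapdh at 134.2, Eno1 at 93.5, Aldoa at 84.2, Aldoc at 76.9 and Pkm at 74.6. Among these neighbours in level, the WT libraries overlapped for Aldoc and Pkm. The lowest Aldoa value (80.7 FPKM) just cleared the highest Aldoc value (80.6), and the lowest Pgam2 value (151) cleared the highest Gapdh value (142). Pgam2 was more abundant than 96.9% of the genes tested. The members of lowest level were Slc2a3, Pfkfb4, Slc16a1 and Pfkfb2, all with a WT mean under 1 FPKM.

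**Figure D2:**
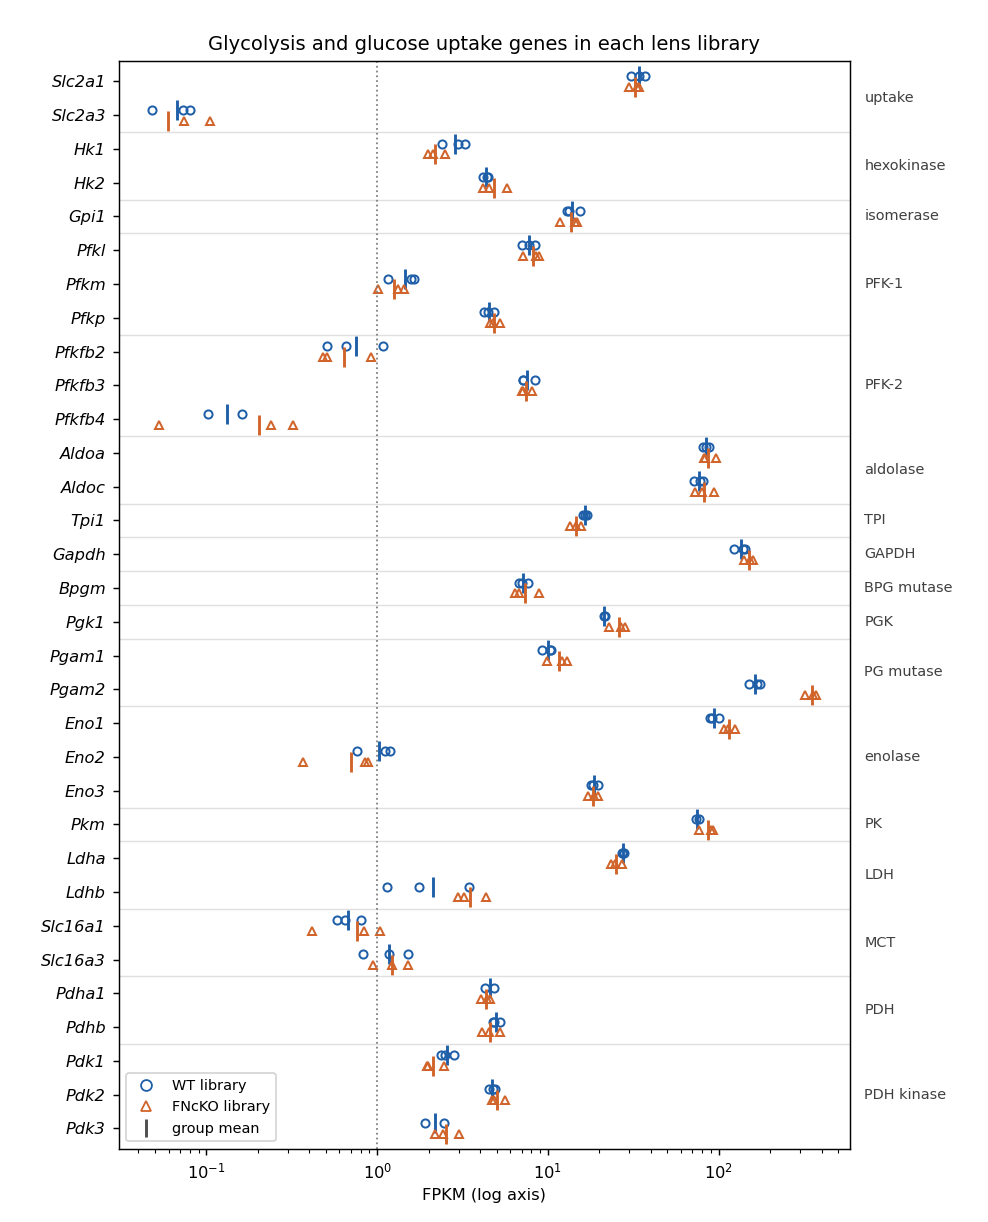
FPKM of the 32 genes in each library (horizontal log axis), ordered by step from glucose uptake at the top to the pyruvate dehydrogenase kinases at the bottom. Circles are WT libraries, triangles FNcKO libraries and vertical ticks group means, and the dotted line marks 1 FPKM. The FNcKO replicate 1 value of Slc2a3, listed at 0, is not drawn, and Pgam2 is where the triangles stand farthest above the circles among the members tested.

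Glucose entry rested on 1 transporter in both genotypes. Slc2a1 (chr4:119108745-119137330 in GRCm38) encodes GLUT1, the transporter of red cells and barrier tissues. It measured 30.6, 36.9 and 34.2 FPKM in WT and 30.0, 34.1 and 33.1 in FNcKO. The groups overlapped throughout, and the log2 change was -0.06 ± 0.09 (SE, adjusted p = 0.78 in limma). Slc2a3, the high-affinity transporter GLUT3 of neurons, was at 0.0669 ± 0.0168 FPKM in WT (SD, n = 3) and 0.0596 ± 0.0539 in FNcKO (SD, n = 3), and was listed at 0 in FNcKO replicate 1. GLUT1 thus made up 99.8% of the summed FPKM of this pair in both groups.

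Hexokinase, which traps glucose as its phosphate, was carried by Hk2 and Hk1, the isoforms that can bind mitochondria. Hk2 (chr6:82725023-82774454) measured 4.14, 4.43 and 4.38 FPKM in WT and 4.51, 5.72 and 4.18 in FNcKO, with overlap and an adjusted p of 0.621 in limma. Hk1 (chr10:62268855-62379916) measured 2.97, 2.39 and 3.25 FPKM in WT and 2.49, 2.11 and 1.98 in FNcKO. The lowest WT library lay inside the FNcKO range, the log2 change was -0.27 ± 0.11 (SE), and limma gave an unadjusted p of 0.0498 that did not pass adjustment (adjusted p = 0.275). The summed hexokinase level was 7.19 ± 0.409 FPKM in WT (SD, n = 3) and 6.998 ± 0.835 in FNcKO (SD, n = 3), a difference smaller than the spread. Gpi1, which turns glucose 6-phosphate into fructose 6-phosphate, was at 13.9 ± 1.3 FPKM in WT and 13.7 ± 1.62 in FNcKO (mean ± SD, n = 3 per group).

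Phosphofructokinase, the main control point of the pathway, was present in its liver, platelet and muscle forms in that order. Pfkl, the liver form (chr10:77986947-78009796), measured 7.75, 7.04 and 8.37 FPKM in WT and 8.50, 7.14 and 8.85 in FNcKO. Pfkp, the platelet form, was at 4.49 ± 0.317 FPKM in WT and 4.85 ± 0.340 in FNcKO (mean ± SD, n = 3 per group). Pfkm, the muscle form, was at 1.46 ± 0.260 and 1.26 ± 0.216 FPKM (mean ± SD, n = 3 per group). All 3 overlapped between genotypes, and the muscle form made up 10.6% of the step in WT.

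Among the bifunctional enzymes that make or break fructose 2,6-bisphosphate, the activator of phosphofructokinase, Pfkfb3 led. Pfkfb3, the form with the strongest kinase side (chr2:11471430-11554071), measured 7.14, 8.44 and 7.14 FPKM in WT and 8.09, 7.18 and 7.08 in FNcKO, with a log2 change of -0.02 ± 0.09 (SE). Pfkfb2, the heart form, was at 0.750 ± 0.299 FPKM in WT and 0.638 ± 0.243 in FNcKO (mean ± SD, n = 3 per group). Pfkfb4 was at 0.131 ± 0.0414 FPKM in WT (SD, n = 2) and 0.204 ± 0.138 in FNcKO (SD, n = 3). Both of these were below the level tested.

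Aldolase, which splits the 6-carbon sugar, came in nearly equal parts from the muscle form Aldoa and the brain form Aldoc. Aldoa (chr7:126795234-126809510) measured 80.7, 84.1 and 87.7 FPKM in WT and 82.3, 96.0 and 83.0 in FNcKO. Aldoc was at 76.9 ± 4.47 FPKM in WT and 82.2 ± 11.3 in FNcKO (mean ± SD, n = 3 per group). FNcKO replicate 2 was the highest library for both genes, and the other FNcKO libraries lay within or near the WT range.

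The triose steps held both directions of non-overlap. Tpi1, which interconverts the 3-carbon products of aldolase, measured 16.5 ± 0.506 FPKM in WT and 14.6 ± 1.05 in FNcKO (mean ± SD, n = 3 per group). Its log2 change of -0.17 ± 0.07 (SE) did not pass (adjusted p = 0.282 in limma), although its 3 FNcKO values lay below the 3 WT values, and it was 0.07 with libraries scaled to the same FPKM total. Gapdh, which makes the NADH of the pathway, was at 134.2 ± 10.5 FPKM in WT and 151.2 ± 9.28 in FNcKO (mean ± SD, n = 3 per group, adjusted p = 0.375 in limma). Pgk1, an X-linked gene for the enzyme that makes the first ATP, was at 21.4 ± 0.227 FPKM in WT (SD, n = 2) and 25.9 ± 2.80 in FNcKO (SD, n = 3, adjusted p = 0.304 in limma). Bpgm, which makes the 2,3-bisphosphoglycerate known from red cells, was at 7.17 ± 0.455 and 7.35 ± 1.3 FPKM (mean ± SD, n = 3 per group). Of the 50-base stretches of the longest transcript, 82.5% for Gapdh and 68.0% for Pgk1 also occur in other genes, mostly in processed copies, so their levels depend on how the authors' counting divided such fragments.

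Phosphoglycerate mutase moves the phosphate of 3-phosphoglycerate to the neighbouring carbon, and in the lens its RNA was almost wholly the muscle form. Pgam2 lies at chr11:5801637-5803796 in GRCm38. It measured 168, 151 and 174 FPKM in the WT libraries and 374, 322 and 358 FPKM in the FNcKO libraries. Each FNcKO library was above every WT library, and the gap between the groups was far wider than either group's range. The WT libraries averaged 164.2 ± 11.7 FPKM and the FNcKO libraries 351.2 ± 26.3 FPKM (mean ± SD, n = 3 per group), a 2.14-fold difference. The log2 change was 1.09 ± 0.09 (SE), with a 95% interval of 0.87 to 1.32 and an adjusted p of 0.0073 in limma. By p it ranked 30 among the genes tested, and 20 of the genes called higher had a larger log2 change. At the estimated depths these levels correspond to 2749.5 to 3399.3 fragments in the WT libraries and 4350.7 to 5115.9 in the FNcKO libraries, so counting error is small beside the difference. None of the 50-base stretches of the Pgam2 transcript occurs in another gene (0 of 791).

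The brain form Pgam1 (chr19:41911871-41918665), which most other tissues use, was a minor part of this step. It was at 10.01 ± 0.659 FPKM in WT and 11.6 ± 1.6 in FNcKO (mean ± SD, n = 3 per group), with overlap and a log2 change of 0.19 ± 0.11 (SE, adjusted p = 0.429 in limma). Pgam2 made up 94.8%, 93.5% and 94.4% of the summed mutase FPKM in WT and 97.4%, 96.1% and 96.7% in FNcKO. The mutase total was 174.2 ± 11.4 FPKM in WT and 362.8 ± 24.9 in FNcKO (mean ± SD, n = 3 per group). Of the 50-base stretches of Pgam1, 41.5% also occur in other genes, chiefly in the retrocopy Pgam1-ps2, whose own row was at 6.35 ± 0.205 and 7.44 ± 1.02 FPKM (mean ± SD, n = 3 per group). With that row added to Pgam1, the Pgam2 share was 90.9% in WT and 94.8% in FNcKO.

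The 250 bases before the start sites of both mutase genes are shown because they are the isozyme pair of which 1 member changed. They are from RefSeq for GRCm38.p6, written 5′ to 3′ on the gene's strand, Pgam2 from the minus strand of chr11:5803797-5804046 and Pgam1 from the plus strand of chr19:41911621-41911870. Capitals mark an E-box of the letters CAGCTG and a MEF2-type element in Pgam2, both of the kinds found near many muscle genes, and in Pgam1 the letters ACGTG, the core of hypoxia response elements.
Pgam2: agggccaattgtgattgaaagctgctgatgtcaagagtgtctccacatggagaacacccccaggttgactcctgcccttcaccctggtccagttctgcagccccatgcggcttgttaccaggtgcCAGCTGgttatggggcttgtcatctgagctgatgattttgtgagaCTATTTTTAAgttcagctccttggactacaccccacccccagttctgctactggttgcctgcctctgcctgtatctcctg
Pgam1: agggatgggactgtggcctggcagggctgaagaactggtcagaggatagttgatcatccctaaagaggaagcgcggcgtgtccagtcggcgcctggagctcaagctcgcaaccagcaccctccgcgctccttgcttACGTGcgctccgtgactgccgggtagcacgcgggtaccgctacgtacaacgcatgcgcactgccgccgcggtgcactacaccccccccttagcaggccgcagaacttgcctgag
In Pgam2 the E-box lay 125 to 120 bases and the MEF2-type element 80 to 71 bases before the start, and ACGTG was on neither strand. In Pgam1 the ACGTG lay 114 to 110 bases before the start. Of 32851 promoter windows of the same 250 bases, both strands searched, 16.6% held ACGTG, 13.0% held CAGCTG and 2.9% held the MEF2-type element. Of the 31 members with a promoter in that table, ACGTG was in 15, among them Slc2a1, Hk2, Aldoa, Pgk1, Pkm, Ldha and Slc16a3, while CAGCTG was in 5 and the MEF2-type element in Pgam2 alone. Members with several start sites have several windows, of which 19 of 47 (40.4%) held ACGTG, 5 (10.6%) CAGCTG and 1 (2.1%) the MEF2-type element. The shares of CAGCTG and the MEF2-type element lay under those of all windows. The median GC content of the members' windows was 60.4%, against 52.4% for all windows, and the part of base composition in these shares was not tested. A match is a run of letters and does not show that a factor is bound.

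Markers of other tissues were read beside Pgam2, since it is the muscle form. The summed level of 11 skeletal muscle genes was 2.2 to 2.47 FPKM in WT and 2.29 to 2.51 in FNcKO, with ranges that overlapped and no gene of the list at 0 in every library. Its most abundant members, Mylpf (a fast myosin light chain) and Acta1 (skeletal alpha actin), were at 0.596 ± 0.139 and 0.790 ± 0.107 FPKM in WT and 0.953 ± 0.0634 and 0.767 ± 0.104 in FNcKO (mean ± SD, n = 3 per group), and the Mylpf values did not overlap. The part of skeletal muscle RNA in the Pgam2 level was not tested. The summed level of the epithelial markers given above was higher in FNcKO without overlap. Most of that sum was Cd24a, at 837.9 ± 9.97 FPKM in WT and 1008 ± 57.1 in FNcKO (mean ± SD, n = 3 per group). The sum thus mainly follows that gene, and its lack of overlap need not hold for the other markers. Of the 8 markers, 5 had a log2 change above 0 and 3 under 0, with a median of 0.09. The test was passed by 2 of them, Epha2 and Slc7a5, named after their values were seen. The 10 photoreceptor genes with a value in every library summed to 65.5, 28.3 and 79.1 FPKM in WT and 41.1 to 41.8 in FNcKO. That overlap rests on WT replicate 2. Of 11 photoreceptor genes tested, 10 had a log2 change under 0, with a median of -0.42. Gnat1 (rod transducin), which lacks WT replicate 2 and is not in the sum, fell from 20.6 ± 2.34 FPKM (SD, n = 2) to 9.42 ± 0.503 (SD, n = 3, adjusted p = 0.0215 in limma). Pigment cell genes summed to 11.6 to 19.0 FPKM in WT and 6.67 to 8.46 in FNcKO, with Ttr (transthyretin) at 8.85 ± 2.87 and 3.68 ± 0.755 and Oca2 (a melanosome protein) at 2.204 ± 0.406 and 1.20 ± 0.0734 (mean ± SD, n = 3 per group). Ciliary and iris genes overlapped in sum, at 120 to 137 and 116 to 147 FPKM. Of the 5 tested, 3 had a log2 change above 0 and 2 under 0. An unadjusted p under 0.05 in limma was found for 4 of the 5, against 18.1% of all genes tested. The test was passed by 1, Aqp1, named after its values were seen. Acta2 (smooth muscle actin) was at 99.3 ± 6.06 and 70.9 ± 6.54 and Optc (opticin) at 18.3 ± 3.58 and 42.9 ± 9.93 (mean ± SD, n = 3 per group). They moved in opposite directions, each without overlap. Neuron and glia genes (led by Glul and Aqp4), endothelial genes (Egfl7 and Kdr), leukocyte genes (C1qa and C1qb) and red cell genes (Hba-a2 and Hba-a1) had 0 members past the test and 0 with an unadjusted p under 0.05 in limma, and no leukocyte or red cell gene reached the level tested. The part of the epithelial, photoreceptor, pigment and ciliary differences, and of depth, in the Pgam2 difference was not tested.

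The genes around Pgam2 did not share its size of change. Dbnl, an actin-binding adaptor that ends 656 bases from Pgam2 on the opposite strand (chr11:5788483-5800980), measured 121, 129 and 125 FPKM in WT and 160, 157 and 142 in FNcKO. The groups did not overlap, and its log2 change was 0.29 ± 0.07 (SE, adjusted p = 0.123 in limma). Mrps24, a mitochondrial ribosome protein gene 93919 bases away, was at 16.9 ± 1.37 and 24.2 ± 1.91 FPKM (mean ± SD, n = 3 per group, adjusted p = 0.0636 in limma). No other tested gene within 250 kb of Pgam2 passed the test either. Whether the authors counted by strand is not stated. The annotated bounds of Pgam2 and Dbnl do not overlap, and whether fragments of either gene were counted for the other was not tested.

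**Figure D3:**
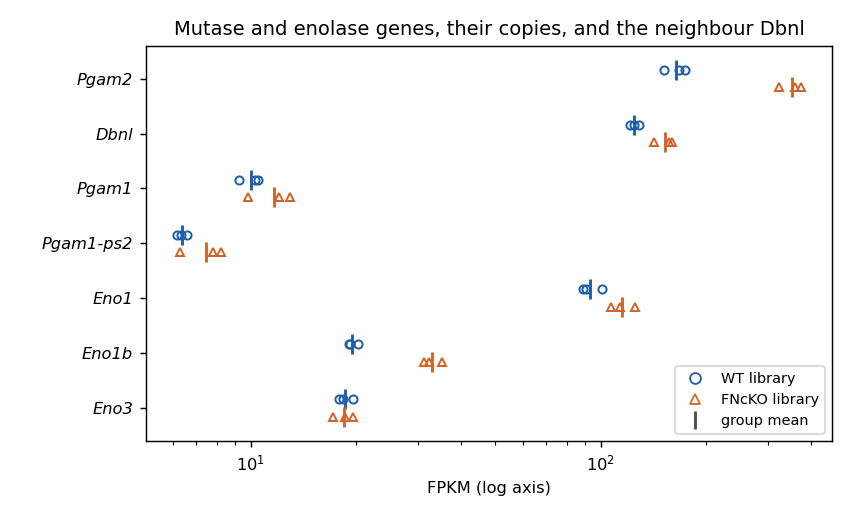
FPKM in each library (horizontal log axis) of the mutase genes Pgam2 and Pgam1 with the retrocopy Pgam1-ps2, the enolase genes Eno1 and Eno3 with the copy Eno1b, and Dbnl, the nearest neighbour of Pgam2. Circles are WT libraries, triangles FNcKO libraries and ticks group means. Both Pgam2 and Eno1b have FNcKO values well clear of the WT values, by 2.14-fold and 1.69-fold in the means.

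Enolase, the next enzyme, was led by the ubiquitous form Eno1, which was somewhat higher in FNcKO but did not pass the test. Eno1 (chr4:150236726-150248873), a member of the family that was also recruited as a lens crystallin in some vertebrates, measured 88.8, 90.9 and 101 FPKM in WT and 107, 125 and 113 in FNcKO. The groups did not overlap, the log2 change was 0.30 ± 0.09 (SE), and limma gave an unadjusted p of 0.0161 and an adjusted p of 0.175. Eno3, the muscle form, was at 18.6 ± 0.916 FPKM in WT and 18.5 ± 1.25 in FNcKO (mean ± SD, n = 3 per group), a ratio of 0.993. Eno2, the neuronal form, was at 1.022 ± 0.230 and 0.702 ± 0.290 FPKM (mean ± SD, n = 3 per group), below the level tested over all libraries.

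The value of Eno1 depends on a copy of it. Of its 50-base stretches 72.2% occur in other genes, and 1395 of 1978 occur in Eno1b, an intronless copy on another chromosome. The Eno1b row, named after its values were seen, was at 19.5 ± 0.671 FPKM in WT and 33.0 ± 2.03 in FNcKO (mean ± SD, n = 3 per group), with a log2 change of 0.73 ± 0.07 (SE, adjusted p = 0.0113 in limma). With the pair summed, an alternative added after seeing the data, the log2 change was 0.39 and the adjusted p 0.0955 in limma. Fragments from shared stretches cannot be told apart between the pair, so the row of Eno1b is uncertain, and the sum did not pass.

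Pyruvate kinase and lactate dehydrogenase end the pathway. Pkm, which makes the last ATP, was at 74.6 ± 2.13 FPKM in WT (SD, n = 2) and 86.4 ± 8.77 in FNcKO (SD, n = 3, adjusted p = 0.413 in limma). The table gives no split of the gene into its M1 and M2 splice forms. Ldha, the muscle form that favours lactate (chr7:46845804-46855627), measured 27.3, 27.8 and 27.6 FPKM in WT and 23.5, 24.6 and 27.2 in FNcKO. The FNcKO values lay just under the WT values, and the log2 change of -0.13 ± 0.07 (SE) did not pass (adjusted p = 0.39 in limma) and was 0.11 with libraries scaled to the same FPKM total. Ldhb, the heart form, was at 2.12 ± 1.19 FPKM in WT and 3.51 ± 0.721 in FNcKO (mean ± SD, n = 3 per group), with overlap, a log2 change of 0.59 ± 0.28 (SE) and an adjusted p of 0.339 in limma. The change was 0.35 without WT replicate 1 and 0.88 without WT replicate 3. In proportion to its level, its spread among WT libraries was the widest of the tested members.

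Lactate export was low in RNA. Slc16a3, the exporter MCT4 of glycolytic tissues (chr11:120948484-120959000), measured 1.18, 1.51 and 0.821 FPKM in WT and 0.944, 1.51 and 1.22 in FNcKO. Slc16a1, the widespread carrier MCT1, was at 0.677 ± 0.114 and 0.764 ± 0.318 FPKM (mean ± SD, n = 3 per group) and was not tested. Both overlapped. Their partner Bsg (basigin), which brings these carriers to the membrane, was at 132.7 ± 4.65 FPKM in WT and 125.5 ± 3.71 in FNcKO (mean ± SD, n = 3 per group, adjusted p = 0.574 in limma).

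The genes that lead pyruvate to mitochondria or keep it from them did not pass the test. Pdha1 and Pdhb, the subunits of the first enzyme of the pyruvate dehydrogenase complex, were at 4.55 ± 0.394 (SD, n = 2) and 4.95 ± 0.243 FPKM (SD, n = 3) in WT and at 4.35 ± 0.257 and 4.61 ± 0.568 in FNcKO (mean ± SD, n = 3 per group). Of the kinases that switch the complex off, Pdk2 led (chr11:95026258-95041371), at 4.87, 4.51 and 4.78 FPKM in WT and 5.63, 4.80 and 4.73 in FNcKO. Pdk1 was at 2.56 ± 0.232 FPKM in WT and 2.13 ± 0.286 in FNcKO (mean ± SD, n = 3 per group). Pdk3 was at 2.19 ± 0.391 (SD, n = 2) and 2.54 ± 0.427 (SD, n = 3). The adjusted p values in limma ran from 0.367 for Pdk1 to 0.80 for Pdha1.

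The choice of isozyme was compared at the 10 steps with more than 1 member, as the share of each isozyme in the summed FPKM of its step. By group means, the leading isozyme was the same gene in both genotypes at each step, while in FNcKO replicate 1 Slc16a1 held more of lactate export than Slc16a3 (52.4% against 47.6%). Its shares did not overlap between genotypes at 2 steps. Pgam2 held 94.2% ± 0.639 of the mutase in WT and 96.8% ± 0.649 in FNcKO (mean ± SD, n = 3 per group). Eno1 held 82.6% ± 0.555 and 85.7% ± 0.725 of the enolase (mean ± SD, n = 3 per group), and Eno3 16.5% and 13.8%. The exact permutation test over libraries, two-sided, gave p = 0.1 for both, the smallest that 3 against 3 allows, and an adjusted p of 0.5 over the 10 steps, so no step could pass. At the other 8 steps the shares of the leading isozyme overlapped, though those of Pdk1 did not (26.8% and 24.7% in WT and 24.0%, 21.3% and 20.3% in FNcKO). Hk2 was at 60.2% ± 4.15 and 68.4% ± 4.31 of hexokinase and Ldha at 93.0% ± 3.65 and 87.8% ± 1.48 of lactate dehydrogenase (mean ± SD, n = 3 per group, exact permutation p = 0.2 for both). The shares of Pfkl (56.5% and 57.1%), Aldoa (52.3% and 51.5%), Slc16a3 (62.7% and 61.8%), Pdk2 (51.1% and 51.9%) and Pfkfb3 (87.7% and 89.8%) moved by less than the larger SD of their groups.

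**Figure D4:**
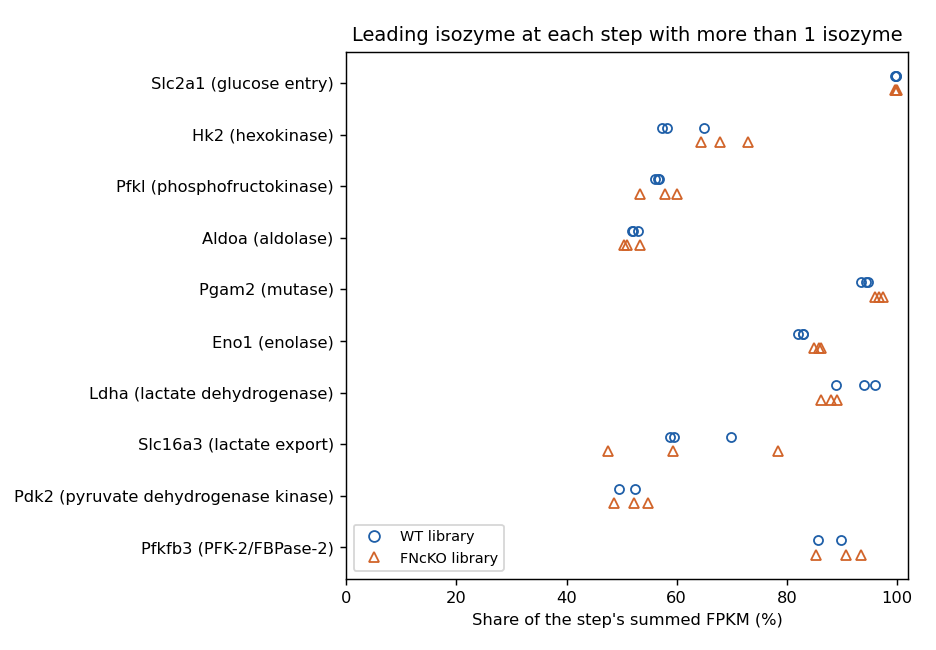
Share of the leading isozyme in the summed FPKM of its step (percent, horizontal axis) at the 10 steps with several members, by library. Circles are WT and triangles FNcKO libraries, with WT replicate 2 missing at the last 2 steps. The symbols separate at the mutase (94.2% and 96.8% in the means) and at the enolase (82.6% and 85.7%) and overlap elsewhere.

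The 6 lists of related genes had 0 members past the test in limma, against 1.89% of all genes tested, and 9 of their 36 tested members (25%, against 18.1% of all genes tested) had an unadjusted p under 0.05. In the glycogen list 12 of 16 genes were tested, 3 had an unadjusted p under 0.05, and the median log2 change was 0.00. Ugp2, which makes the UDP-glucose for glycogen, was at 5.32, 4.89 and 5.50 FPKM in WT and 7.12, 7.47 and 6.93 in FNcKO, without overlap and with an adjusted p of 0.0504. It passed under median-ratio scaling (adjusted p = 0.022), quantile normalization (0.0269) and with only genes that have a value in every library (0.0486). Under the other alternatives it did not pass, with adjusted p values in limma from 0.0501 (pseudocount 0.1) to 0.229 (replicate block). With 1 library left out they were 0.105 to 0.169.

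In the list of oxygen sensing and regulators 10 of 19 genes were tested and 5 had an unadjusted p under 0.05 (18.1% did over the whole fit), with a median log2 change of -0.03. Hif1a, the oxygen-regulated subunit of the factor that drives many glycolysis genes, was at 49.6, 51.8 and 50.7 FPKM in WT and 42.9, 41.2 and 39.8 in FNcKO. The groups did not overlap, and the log2 change of -0.29 ± 0.06 (SE) did not pass (adjusted p = 0.0801 in limma) and was -0.04 with the same FPKM total and 0.13 with that total without crystallins. Egln3, a prolyl hydroxylase that marks HIF for destruction and is itself a HIF target, was at 1.58 ± 0.0668 and 1.08 ± 0.177 FPKM (mean ± SD, n = 3 per group, adjusted p = 0.17 in limma). In the pentose phosphate list 6 of 9 were tested, with Tkt (transketolase) at 65.8 ± 3.14 and 58.5 ± 2.68 and Pgls (the lactonase) at 12.2 ± 1.71 and 13.3 ± 1.71 FPKM (mean ± SD, n = 3 per group). In the list of pyruvate entry and oxidation 5 of 11 were tested, with a median log2 change of -0.16. Pdhx, a structural part of the pyruvate dehydrogenase complex, was at 3.36 ± 0.165 and 2.68 ± 0.412, and Mpc2, a subunit of the mitochondrial pyruvate carrier, at 16.9 ± 2.11 and 15.0 ± 1.69 FPKM (mean ± SD, n = 3 per group). Among gluconeogenesis genes 1 of 6 was tested, G6pc3, at 2.81 ± 0.386 and 2.83 ± 0.543 FPKM (mean ± SD, n = 3 per group). Of 25 other isozymes and transporters 2 were tested, among them Bsg, given above with the lactate carriers. The remaining 23, such as the other Slc2a transporters, were below 1 FPKM on average.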

How the data were processed

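The values are FPKM, computed and deposited by the authors in a single table. The submitters' processing notes name Cuffdiff 2.2.1, TopHat2 2.1.0, cutadapt 1.12 and FastQC, and the builds mm10 and GRCm38.p5. The annotation, the handling of multiply mapped fragments and strand use were not given in the sources used here. WT replicate 2 lacks 3578 rows (8.63%), and 1 unreadable value of WT replicate 3 was treated as missing. Positions count from 1.

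The deposited FPKM were put on the log2(FPKM + 1) scale and fitted by limma 3.58.1 under R 4.3.3, two-sided, with a trended empirical Bayes prior and genotype as its only term. Genes had to average 1 FPKM, which left 10149, of which 742 lack WT replicate 2. The threshold was an adjusted p of 0.05. Folds are ratios of mean FPKM, and the log2 scale understates changes of low genes. The fit was tested on simulated data.

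The labels call the libraries of a genotype biological replicates. Depth is an estimate from the steps between low values of unspliced genes (62.9% to 69.9% of values lay within 0.15 of a whole number). Shared 50-base stretches were counted in GENCODE vM21 transcripts. The named genes are all members (per library for those past the test, with an unadjusted p under 0.05 or leading a step), Fn1, the called or 2 lowest-p genes of each related list, and the 2 most abundant markers of each cell type. Some genes that these rules take are not reported here. The members and lists were chosen with earlier results of these data known. Alternatives were the pseudocount, the filter, 4 scalings, a replicate block, genes with every library, each library left out, log2 ratios of isozymes and, added after seeing the data, copies summed.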

Additional observations from a re-analysis of the deposited data

How the results depend on the processing

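Pgam2 was the 1 member past the test under every alternative but the replicate block, where 0 passed and its log2 change was 1.09 (adjusted p = 0.0701 in limma). Elsewhere its log2 change ran from 1.03 to 1.52 and its adjusted p from 0.00131 to 0.0467, the highest without WT replicate 1. The labels do not say that equally numbered libraries belong together. Their deviations from the group means correlated at -0.027, -0.055 and -0.046 over 9407 genes. With so few libraries, these values do not settle whether they share a litter or day. The replicate block left 14 genes past the test, of all genes tested, and 0 marker genes. All genes past the test numbered 101 with no filter, 93 with the same FPKM total, 89 with that total taken without crystallins, and 48 (without WT replicate 1) to 111 (without FNcKO replicate 1) with 1 library left out. Marker genes past the test numbered 2 with no filter and with both FPKM totals, and 0 to 3 with 1 library left out. Related pathway genes past the test numbered 2 under median-ratio scaling, 1 under quantile normalization and 1 with only genes that have a value in every library. The cause of these changes was not tested.

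The median log2 change of the members was 0.10 under median-ratio scaling, 0.11 under quantile normalization, 0.29 with the same FPKM total and 0.44 with that total without crystallins. The last 2 scalings moved the median of all genes to 0.15 and 0.29, so that the members' median lay 0.14 and 0.15 above it, against 0.09 in the main analysis. Signs of members that did not pass turned with the scaling. Under median-ratio scaling the log2 changes were 0.02 for Gpi1, 0.04 for Eno3 and 0.03 for Pfkfb3. Under quantile normalization they were 0.01 for Slc2a1, 0.04 for Gpi1, 0.07 for Eno3 and 0.03 for Pfkfb3. With the same FPKM total they were 0.18 for Slc2a1, 0.21 for Gpi1, 0.02 for Pfkm, 0.07 for Tpi1, 0.23 for Eno3, 0.11 for Ldha, 0.15 for Pdha1, 0.12 for Pdhb and 0.20 for Pfkfb3. Without crystallins in that total they were 0.36 for Slc2a1, 0.03 for Hk1, 0.37 for Gpi1, 0.12 for Pfkm, 0.23 for Tpi1, 0.40 for Eno3, 0.28 for Ldha, 0.30 for Pdha1, 0.27 for Pdhb, 0.11 for Pdk1 and 0.36 for Pfkfb3.

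With 1 library left out, the log2 change ran from -0.13 to 0.00 for Slc2a1, -0.08 to 0.07 for Gpi1, -0.02 to 0.08 for Aldoa, -0.01 to 0.18 for Aldoc, -0.05 to 0.04 for Eno3, -0.07 to 0.05 for Pfkfb3, -0.08 to 0.15 for Slc16a3, 0.35 to 0.88 for Ldhb, -0.12 to 0.02 for Pdha1 and -0.10 to 0.10 for Bpgm. The difference in share ran from -0.067 to 0.091 percentage points for Slc2a1, -0.92 to 2.439 for Pfkl, -9.192 to 6.203 for Slc16a3 and -0.589 to 2.471 for Pdk2. The steps whose leading shares did not overlap numbered 2 to 5 with 1 library left out (4 without FNcKO replicate 1 and 5 without FNcKO replicate 2) and 4 as log2 ratios of the leading pair, where the difference was -0.05 for Slc2a1 and -0.02 for Pfkl. Fewer libraries make gaps between groups more frequent by construction. Slc2a3, Pfkfb4, Pfkfb2, Slc16a1 and Eno2 were left out by the filter on low values. Slc2a3 and Pfkfb4 rest on the fewest estimated fragments of the members.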
